A study of Saccharomyces cerevisiae with 15 samples.

Results

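The 33 genes described here are nuclear genes of the yeast respiratory chain and ATP synthase, measured in 15 cultures of Saccharomyces cerevisiae on Affymetrix YG-S98 arrays. They were chosen by name and role: 4 genes of complex II, 9 of complex III, 7 of complex IV, 5 of the catalytic F1 part of ATP synthase, 7 of its stalk and membrane part (Fo), and NDI1. All 33 had a probe set on the array, among 5656 genes with a probe set of their own. A gene with several probe sets was read from the brightest, and levels are log2(signal + 16) after quantile normalisation.

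The 15 cultures were in logarithmic growth in synthetic dextrose medium at 30 °C, in 5 groups of 3 biological replicates. The groups carried an empty vector, expressed a Pdr1-Cyc8 fusion, expressed a Pdr1-Sin3 fusion, lacked the endogenous PDR1 gene, or combined that deletion with expression of Pdr1-Cyc8. The activator Pdr1, a zinc cluster protein, turns on pleiotropic drug resistance genes, Cyc8 is a subunit of the Cyc8-Tup1 corepressor and Sin3 belongs to a histone deacetylase complex. The study asked what fusions of Pdr1 to a corepressor do to gene expression. The labels give no promoter for the fusions, and the parent strain was not stated in what was used here.

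Complex II (succinate dehydrogenase) passes electrons from succinate to ubiquinone, complex III (cytochrome bc1) passes them from ubiquinol to cytochrome c, and complex IV (cytochrome c oxidase) passes them to oxygen. Complexes III and IV pump protons across the mitochondrial inner membrane, and ATP synthase uses the returning protons to make ATP. Budding yeast has no proton-pumping complex I and oxidises matrix NADH with the single polypeptide Ndi1. On glucose the yeast mostly ferments, and many respiratory genes are kept low by glucose repression and raised by the Hap2/3/4/5 activator when glucose runs out.

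The array medians were 116 to 141 in deposited signal, and the members were bright. Their deposited signals ran from 147.2 to 5871.1, 32 of the 33 lay above the 75th percentile of all probe sets by mean level, and the dimmest lay at percentile 63.8. The PDR1 probe set was at 9.08 ± 0.16 (log2 level, mean ± SD, n = 3) in empty vector cells, 9.07 ± 0.12 for Pdr1-Cyc8, 8.67 ± 0.23 for Pdr1-Sin3, 4.70 ± 0.39 for the deletion and 6.94 ± 0.24 for the deletion carrying Pdr1-Cyc8. It was thus higher in that last group than in the deletion alone and no higher with either fusion than with the empty vector, and how far it reads the fusion transcripts was not tested. CYC8 was at 8.69 ± 0.05 in empty vector cells and 12.26 ± 0.30 and 11.58 ± 0.52 in the groups with its fusion, and SIN3 at 8.21 ± 0.09 and, with its fusion, 11.45 ± 0.13. Spike-in controls split the arrays by group. BioC minus BioB (log2) was -0.64 to -0.20 on the 3 Pdr1-Sin3 arrays and the 3 of the deletion carrying Pdr1-Cyc8, and 1.02 to 1.32 on the other 9, and each group lay wholly in 1 set, so in every comparison across them the set and the group cannot be told apart. This holds for each comparison of Pdr1-Sin3 or of Pdr1-Cyc8 in the deletion with the empty vector, of Pdr1-Cyc8 in the deletion with the deletion, and of Pdr1-Cyc8 with Pdr1-Sin3, and for the interaction.

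The respiratory genes had their highest group mean in the cultures that lacked PDR1 and expressed Pdr1-Cyc8. Averaged over the 33 genes, the log2 level in single cultures differed from the empty vector mean by 0.34, 0.68 and 0.64 in that group. The Pdr1-Sin3 cultures gave 0.25, 0.39 and 0.15, the Pdr1-Cyc8 cultures 0.35, 0.15 and 0.18, the deletion cultures 0.17, 0.04 and -0.04, and the empty vector cultures themselves -0.09, 0.13 and -0.04. Every culture with a fusion lay above every empty vector culture on this average, and the deletion cultures overlapped with the empty vector. The fusion groups overlapped with each other, as the lowest Pdr1-Cyc8-in-deletion culture (0.34) lay below the highest of Pdr1-Cyc8 (0.35) and of Pdr1-Sin3 (0.39). An array averages over the cells of a culture, so more transcript in each cell and more cells with a high level cannot be told apart.

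The order of the groups was not the same for each complex, although no test compared complexes. Complex II averaged 0.55 ± 0.29 (SD, n = 3) above the empty vector for Pdr1-Cyc8, 0.42 ± 0.12 for the deletion carrying Pdr1-Cyc8, 0.15 ± 0.09 for the deletion and -0.04 ± 0.09 for Pdr1-Sin3. F1 of ATP synthase had a different order, with 0.48 ± 0.04 for Pdr1-Cyc8 in the deletion, 0.35 ± 0.14 for Pdr1-Sin3, -0.02 ± 0.06 for Pdr1-Cyc8 and -0.12 ± 0.19 for the deletion. The stalk and Fo genes followed F1, with 0.55 ± 0.22, 0.34 ± 0.19, 0.09 ± 0.10 and -0.05 ± 0.06 in the same order of groups. The F1 value for Pdr1-Cyc8 in the deletion was 0.38 with the values as deposited and 0.21 under median centring, so it moved by more than its SD. Without single arrays, complex II ranged from 0.42 to 0.79 for Pdr1-Cyc8, 0.29 to 0.66 for Pdr1-Cyc8 in the deletion, 0.02 to 0.39 for the deletion and -0.17 to 0.20 for Pdr1-Sin3, so the order of the first 2 and the sign of the last are not settled. The value of the stalk and Fo genes in the deletion was 0.01 with the values as deposited, so its sign is not settled.

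Complex III was above the empty vector mean in every culture of the other groups, with means of 0.61 ± 0.23 (SD, n = 3) for Pdr1-Cyc8 in the deletion, 0.36 ± 0.09 for Pdr1-Cyc8, 0.28 ± 0.14 for Pdr1-Sin3 and 0.15 ± 0.08 for the deletion. Complex IV averaged 0.64 ± 0.31, 0.15 ± 0.17, 0.30 ± 0.08 and 0.09 ± 0.23 in the same order. Within the Pdr1-Cyc8-in-deletion group, replicate 1 stood lowest for complexes II, III and IV and for the stalk and Fo genes, and its complex IV value of 0.29 was set against 0.78 and 0.86. Its F1 value of 0.46 lay between the 0.44 and 0.52 of the other cultures. The complex II genes of the empty vector spread widely, from -0.26 to 0.48, with replicate 2 high.

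**Figure D1:**
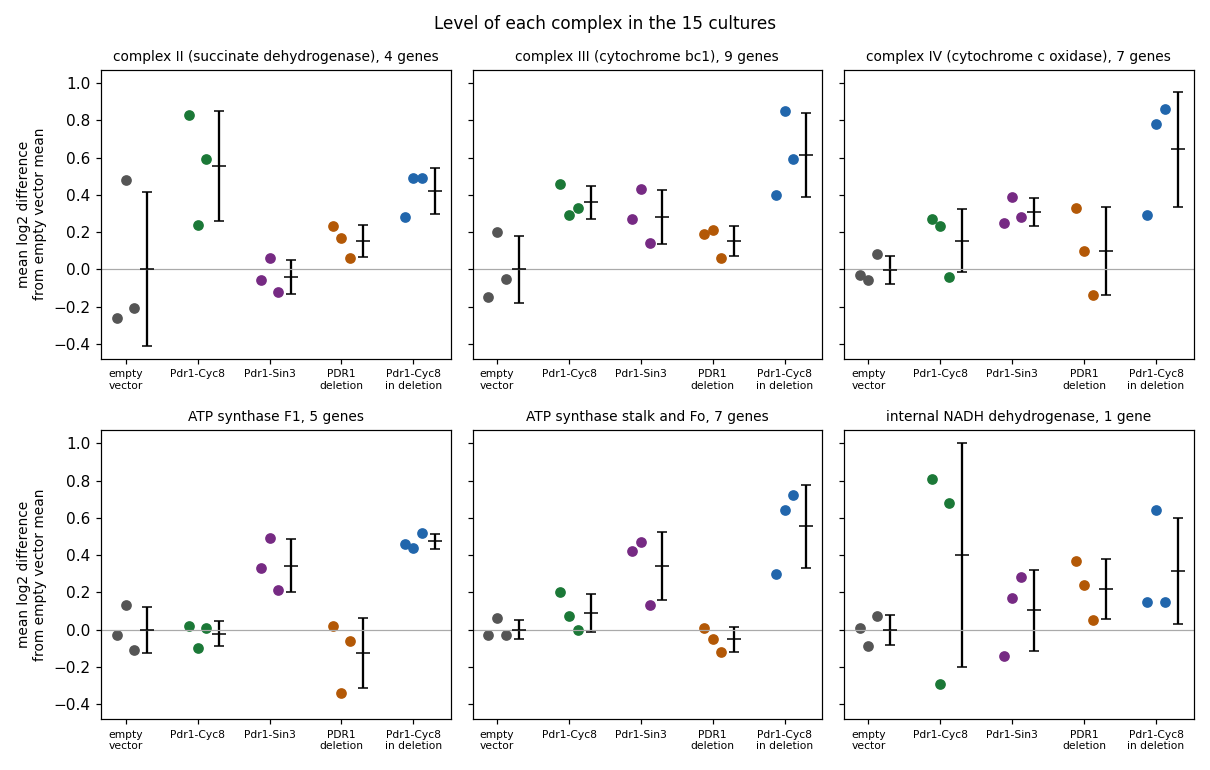
Mean log2 difference from the empty vector mean, over the genes of each complex, for each of the 15 cultures (points) with the group mean and SD (bars, n = 3). F1 lies at 0.44 to 0.52 in the 3 Pdr1-Cyc8-in-deletion cultures and at -0.10 to 0.02 in the 3 Pdr1-Cyc8 cultures, while complex II is at 0.24 to 0.83 with Pdr1-Cyc8 and at -0.12 to 0.06 with Pdr1-Sin3. Values are after quantile normalisation, and the F1 mean of 0.48 was 0.21 under median centring.

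Pdr1-Cyc8 in the deletion was compared with the empty vector first. Of the 33 genes, 32 had a log2 difference above 0, and the exception was ATP2 at -0.14 (adjusted p = 0.817). The median over the members was 0.56, against 0.05 over all genes. With limma, at an adjusted p under 0.05 over 9275 probe sets (called from here on), 7 members rose and 0 fell, while 21 had an unadjusted p under 0.05. The 7 are 21.2% of the members, beside 4.46% of all probe sets and 5.32% of all genes called up. Among the 2671 genes at least as bright as the dimmest member, 5.84% were called up. In 20 of the 33 genes (60.6%) every Pdr1-Cyc8-in-deletion culture lay above every empty vector culture, beside 20.2% of all genes and 23.4% of those as bright, and in 0 members did it lie below.

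The risers were spread over the enzymes. They were QCR7, QCR9 and CYT1 of complex III, COX4 and COX13 of complex IV, and ATP15 and ATP16 of F1. No member of complex II, none of the 7 stalk and Fo genes and not NDI1 was called, although 6 of the 7 stalk and Fo genes had no overlap between the groups. The count was 4 without replicate 1 of the empty vector, 3 without its replicate 3, and 3 or 4 without replicate 2 or 3 of the Pdr1-Cyc8-in-deletion group. Over all probe sets, 464 to 544 were called in either direction in these fits, beside 784 in the full fit. COX4, ATP15 and ATP16 were called in all 6 fits that left out 1 array of these groups, CYT1 in 2, QCR7 and QCR9 in 1 (without replicate 1 of the Pdr1-Cyc8-in-deletion group) and COX13 in 0. Centring each array on its median in place of quantile normalisation left 3 calls, a members' median of 0.35 and 29 of 33 genes above 0. Under this centring 771 of 9275 probe sets were called in either direction, beside 784 with quantile normalisation. The excess of called members over all probe sets was thus smaller. With the values as deposited, the median of all probe sets moved from 0.01 to 0.14 and that of the members to 0.51. Beside these values, 60 ribosome assembly genes, which follow growth, averaged -0.03 ± 0.04 (SD, n = 3) in this group, and 33 environmental stress genes 0.48 ± 0.11, with 9 of them called up and 2 down. Their part in the result was not tested.

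**Figure D2:**
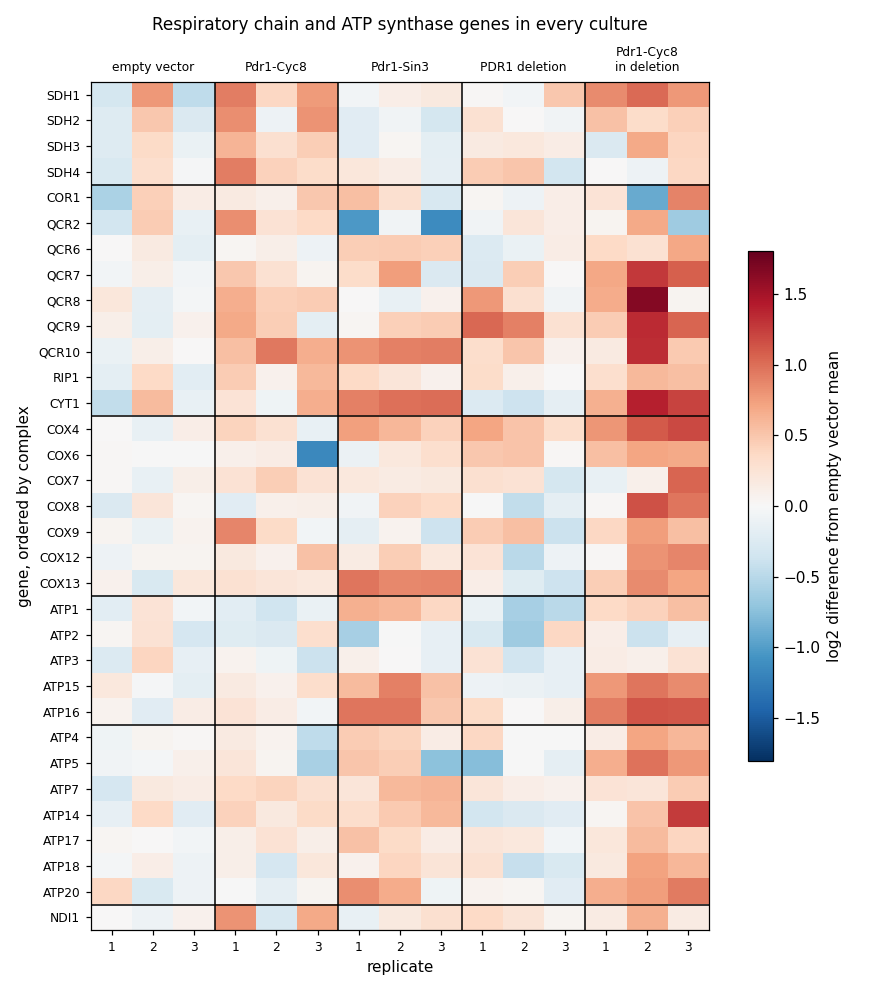
Log2 difference from the empty vector mean for each gene (rows, ordered by complex, lines between complexes) in each culture (columns, by group and replicate), red above and blue below. The Pdr1-Cyc8-in-deletion columns are red in most rows, with ATP2, COR1 and QCR2 among the exceptions, and the top 4 rows (complex II) are redder with Pdr1-Cyc8 than with Pdr1-Sin3.

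Among the complex III genes, CYT1 encodes cytochrome c1, the haem subunit that hands electrons to cytochrome c. CYT1 had log2 levels of 8.16, 9.17 and 8.47 for the empty vector, 8.84, 8.52 and 9.25 for Pdr1-Cyc8, 9.51, 9.59 and 9.61 for Pdr1-Sin3, 8.36, 8.23 and 8.44 for the deletion, and 9.24, 10.0 and 9.81 for the deletion carrying Pdr1-Cyc8. The last group lay above the empty vector and the deletion without overlap, and replicate 2 of the empty vector was the high one of its group. Its difference from the empty vector was 1.08 (SE 0.273, adjusted p = 0.0224), a fold of 2.12, and from the deletion 1.34 (SE 0.273, adjusted p = 0.00437). With Pdr1-Sin3 it was 0.97 above the empty vector and missed the threshold (adjusted p = 0.0627), also with no overlap.

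QCR7 and QCR9 encode small subunits of complex III. QCR7 had log2 levels of 11.03, 11.18 and 11.03 for the empty vector, 11.57, 11.36 and 11.13 for Pdr1-Cyc8, 11.41, 11.83 and 10.82 for Pdr1-Sin3, 10.82, 11.53 and 11.08 for the deletion, and 11.78, 12.35 and 12.15 for the deletion carrying Pdr1-Cyc8. The last group stood above both its comparison groups without overlap, and the difference from the empty vector was 1.01 (SE 0.265, adjusted p = 0.0277). QCR9 had log2 levels of 9.64, 9.36 and 9.62 for the empty vector, 10.22, 9.98 and 9.37 for Pdr1-Cyc8, 9.58, 9.97 and 10.0 for Pdr1-Sin3, 10.57, 10.44 and 9.82 for the deletion, and 9.99, 10.88 and 10.59 for the deletion carrying Pdr1-Cyc8. The deletion cultures were high as well, so QCR9 was 0.95 above the empty vector (SE 0.283, adjusted p = 0.0494) and 0.21 above the deletion (adjusted p = 0.653).

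QCR2 encodes a core protein of complex III. QCR2 had log2 levels of 10.17, 10.96 and 10.36 for the empty vector, 11.34, 10.76 and 10.85 for Pdr1-Cyc8, 9.47, 10.44 and 9.36 for Pdr1-Sin3, 10.44, 10.71 and 10.61 for the deletion, and 10.54, 11.18 and 9.85 for the deletion carrying Pdr1-Cyc8. A pair of Pdr1-Sin3 cultures was low, but replicate 2 of that group lay within the empty vector's range, and the difference of -0.74 was not called (SE 0.344, adjusted p = 0.257). The other core protein gene, COR1, spread from 8.25 to 10.05 within the Pdr1-Cyc8-in-deletion group and differed from the empty vector by 0.02 to 0.25 in the 4 groups.

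The other complex III genes were QCR6 (the acidic hinge protein), QCR8, QCR10 (small subunits) and RIP1 (the Rieske iron-sulfur protein). None was called against the empty vector. QCR10 came closest, at 0.88 with Pdr1-Sin3 (adjusted p = 0.0714), where its 3 cultures at 9.51, 9.60 and 9.62 lay above the empty vector's 8.58, 8.80 and 8.71. QCR8 has a second, dimmer probe set, and they disagreed: Pdr1-Cyc8 in the deletion minus the deletion was 0.45 on the bright one (adjusted p = 0.351) and 0.96 on the dim one (adjusted p = 0.00816).

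Complex IV is built around a core made in the mitochondrion, and the nuclear subunits described here surround it. COX4 encodes an essential zinc-binding subunit. COX4 had log2 levels of 9.78, 9.65 and 9.90 for the empty vector, 10.18, 10.05 and 9.64 for Pdr1-Cyc8, 10.52, 10.38 and 10.19 for Pdr1-Sin3, 10.48, 10.29 and 10.09 for the deletion, and 10.57, 10.88 and 10.96 for the deletion carrying Pdr1-Cyc8. Apart from the Pdr1-Cyc8 group, every group lay above the empty vector without overlap. The difference was 1.03 with Pdr1-Cyc8 in the deletion (SE 0.206, adjusted p = 0.00667), 0.59 with Pdr1-Sin3 (adjusted p = 0.127) and 0.51 in the deletion (adjusted p = 0.304), of which only the first was called.

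COX13 encodes another of these nuclear subunits. COX13 had log2 levels of 10.23, 9.88 and 10.36 for the empty vector, 10.43, 10.38 and 10.34 for Pdr1-Cyc8, 11.12, 11.02 and 11.03 for Pdr1-Sin3, 10.27, 9.94 and 9.79 for the deletion, and 10.60, 11.01 and 10.87 for the deletion carrying Pdr1-Cyc8. The Pdr1-Sin3 cultures were the highest, above all cultures of every other group. The difference from the empty vector was 0.90 with Pdr1-Sin3 (SE 0.199, adjusted p = 0.0211) and 0.67 with Pdr1-Cyc8 in the deletion (SE 0.199, adjusted p = 0.0496). The second call was lost without any 1 of the 6 arrays compared (differences 0.53 to 0.78) and under 11 of 17 alternatives in all, with adjusted p-values up to 0.193. The first was lost without any 1 of them except replicate 3 of the empty vector.

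COX8 and COX6 encode further small subunits. COX8 had log2 levels of 10.41, 10.88 and 10.70 for the empty vector, 10.46, 10.75 and 10.77 for Pdr1-Cyc8, 10.60, 11.08 and 11.02 for Pdr1-Sin3, 10.66, 10.22 and 10.50 for the deletion, and 10.69, 11.81 and 11.62 for the deletion carrying Pdr1-Cyc8. Replicate 1 of the last group lay within the empty vector's range, and COX8 was called only against the deletion, at 0.91 (SE 0.272, adjusted p = 0.0302). COX6 had log2 levels of 10.18, 10.14 and 10.14 for the empty vector, 10.25, 10.29 and 9.0 for Pdr1-Cyc8, 10.05, 10.35 and 10.46 for Pdr1-Sin3, 10.64, 10.66 and 10.18 for the deletion, and 10.69, 10.86 and 10.84 for the deletion carrying Pdr1-Cyc8. Its mean difference of -0.31 with Pdr1-Cyc8 (adjusted p = 0.777) came with 1 low culture, replicate 3, beside a pair above the empty vector. The other complex IV genes (COX7, COX9 and COX12) were 0.33 to 0.57 above the empty vector with Pdr1-Cyc8 in the deletion and were not called in any comparison.

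In ATP synthase, ATP1 and ATP2 encode the alpha and beta subunits that form the catalytic ring, ATP3 the gamma subunit of the rotor, and ATP16 and ATP15 the delta and epsilon subunits at the foot of the rotor. ATP16 had log2 levels of 10.03, 9.76 and 10.09 for the empty vector, 10.20, 10.10 and 9.91 for Pdr1-Cyc8, 10.93, 10.93 and 10.44 for Pdr1-Sin3, 10.31, 9.97 and 10.07 for the deletion, and 10.88, 11.09 and 11.08 for the deletion carrying Pdr1-Cyc8. Cultures with Pdr1-Sin3 and cultures of the deletion carrying Pdr1-Cyc8 lay above all cultures of the other 3 groups. These groups also share a spike-in set that the others do not, so set and group cannot be told apart here. ATP16 was 1.06 above the empty vector in the deletion carrying Pdr1-Cyc8 (SE 0.201, adjusted p = 0.00505) and 0.81 above it with Pdr1-Sin3 (SE 0.201, adjusted p = 0.0364), the latter call lost without any 1 of the 6 arrays compared except replicate 3 of Pdr1-Sin3.

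ATP15 had log2 levels of 10.74, 10.52 and 10.37 for the empty vector, 10.71, 10.62 and 10.86 for Pdr1-Cyc8, 11.11, 11.45 and 11.07 for Pdr1-Sin3, 10.45, 10.44 and 10.39 for the deletion, and 11.33, 11.51 and 11.39 for the deletion carrying Pdr1-Cyc8. The same 2 groups as for ATP16, which share a spike-in set, stood above the others. The difference from the empty vector was 0.86 with Pdr1-Cyc8 in the deletion (SE 0.183, adjusted p = 0.00924) and 0.67 with Pdr1-Sin3, where it missed the threshold (adjusted p = 0.0577).

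ATP1 had log2 levels of 11.60, 12.04 and 11.74 for the empty vector, 11.61, 11.44 and 11.68 for Pdr1-Cyc8, 12.43, 12.39 and 12.17 for Pdr1-Sin3, 11.68, 11.19 and 11.31 for the deletion, and 12.15, 12.21 and 12.34 for the deletion carrying Pdr1-Cyc8. The cultures with Pdr1-Sin3 and those of the deletion carrying Pdr1-Cyc8, which share a spike-in set, did not overlap with the other groups. Against the empty vector the differences of 0.54 with Pdr1-Sin3 (adjusted p = 0.144) and 0.44 with Pdr1-Cyc8 in the deletion (adjusted p = 0.190) were not called. Its partner in the ring, ATP2, and the rotor gene ATP3 showed no such split, at -0.25 to 0.16 against the empty vector over the 4 groups, and no test of ATP1 against ATP2 was made.

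**Figure D3:**
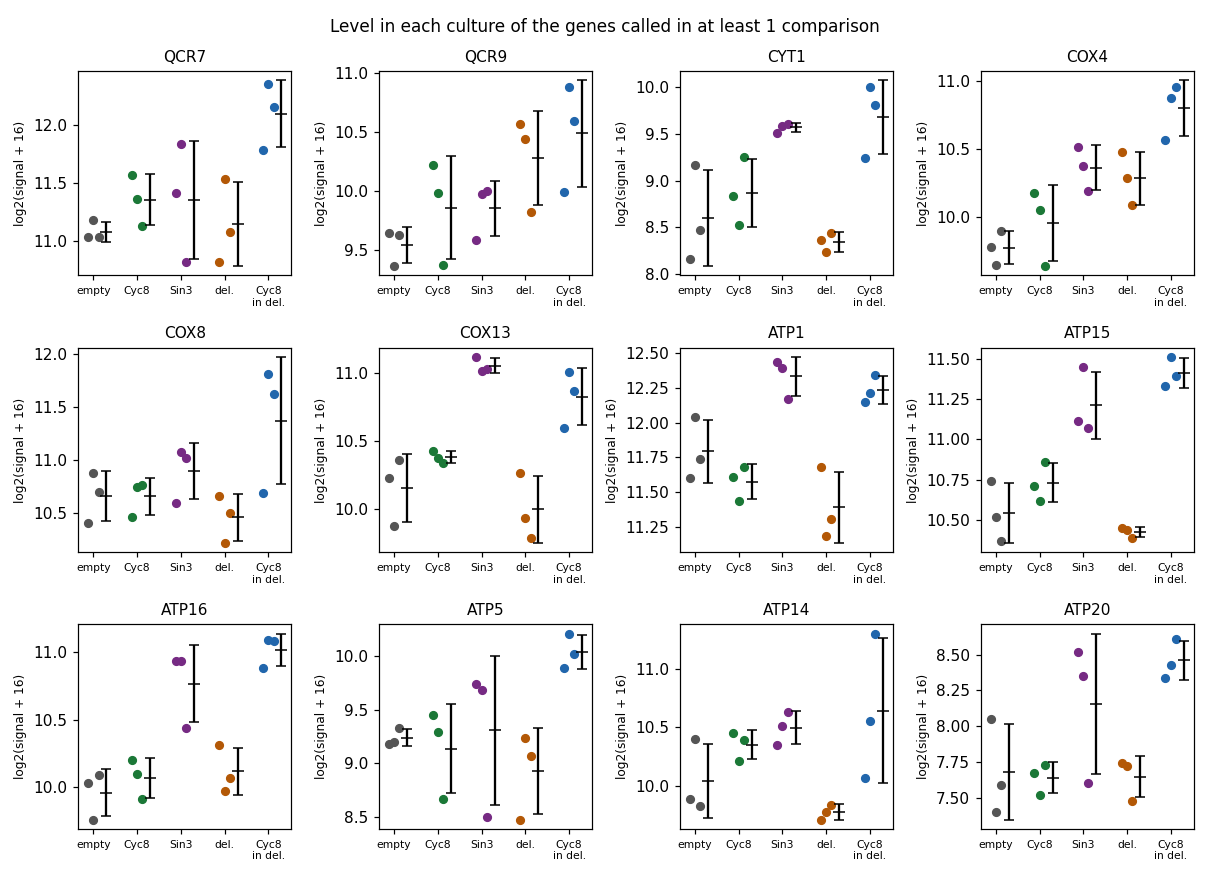
Log2(signal + 16) in each culture (points) of the 12 genes called in at least 1 comparison, with group mean and SD (bars, n = 3); the vertical axes differ and do not start at 0. The points of Pdr1-Sin3 and of the deletion carrying Pdr1-Cyc8 stand above all others in COX13 (from 10.60), ATP1 (from 12.15), ATP15 (from 11.07) and ATP16 (from 10.44). These groups share a spike-in set that the others do not, so set and group cannot be told apart.

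The stalk and membrane part holds the proton channel and the stator that keeps the catalytic ring from turning. ATP5 encodes the stator subunit that sits on top of F1, ATP14 another stator-associated subunit, and ATP20 a membrane subunit associated with dimers of the enzyme. ATP5 had log2 levels of 9.18, 9.2 and 9.33 for the empty vector, 9.45, 9.29 and 8.66 for Pdr1-Cyc8, 9.74, 9.68 and 8.5 for Pdr1-Sin3, 8.47, 9.23 and 9.07 for the deletion, and 9.89, 10.21 and 10.02 for the deletion carrying Pdr1-Cyc8. Single low cultures, at 8.66, 8.5 and 8.47, occurred in 3 groups, while the last group lay above all others. ATP5 was 1.12 above the deletion (SE 0.315, adjusted p = 0.0235) and 0.80 above the empty vector (adjusted p = 0.131).

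ATP14 had log2 levels of 9.89, 10.40 and 9.83 for the empty vector, 10.45, 10.21 and 10.39 for Pdr1-Cyc8, 10.35, 10.51 and 10.63 for Pdr1-Sin3, 9.71, 9.78 and 9.84 for the deletion, and 10.07, 10.55 and 11.30 for the deletion carrying Pdr1-Cyc8. It was called only against the deletion, at 0.86 (SE 0.265, adjusted p = 0.0347), where a second probe set gave 0.80 and missed the threshold (adjusted p = 0.0515). The last group was wide, with replicate 3 far above replicate 1. ATP20 had log2 levels of 8.05, 7.40 and 7.59 for the empty vector, 7.67, 7.52 and 7.73 for Pdr1-Cyc8, 8.52, 8.35 and 7.6 for Pdr1-Sin3, 7.74, 7.72 and 7.48 for the deletion, and 8.34, 8.43 and 8.61 for the deletion carrying Pdr1-Cyc8. It stood without overlap above the deletion, by 0.81 (SE 0.245, adjusted p = 0.0317), a call lost without any 1 of the 6 arrays compared and under 9 of 17 alternatives, at differences of 0.69 to 0.98. Against the empty vector it was 0.78 higher and not called (adjusted p = 0.0608). The other genes of this part, ATP4 and ATP7 of the stator and ATP17 and ATP18 of the membrane part, were 0.30 to 0.51 above the empty vector with Pdr1-Cyc8 in the deletion and were never called.

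Complex II was the only complex of which no gene was called in any of the 8 comparisons. SDH1 encodes its flavoprotein and SDH2 its iron-sulfur protein, and SDH3 and SDH4 the membrane anchor. SDH1 had log2 levels of 8.07, 9.16 and 7.92 for the empty vector, 9.31, 8.76 and 9.15 for Pdr1-Cyc8, 8.33, 8.5 and 8.56 for Pdr1-Sin3, 8.4, 8.34 and 8.87 for the deletion, and 9.23, 9.40 and 9.17 for the deletion carrying Pdr1-Cyc8. Replicate 2 of the empty vector lay among the fusion cultures and far above its own group. The differences from the empty vector were 0.69 with Pdr1-Cyc8 (SE 0.285, adjusted p = 0.426) and 0.88 with Pdr1-Cyc8 in the deletion (SE 0.285, adjusted p = 0.0666).

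SDH2 had log2 levels of 9.31, 10.02 and 9.28 for the empty vector, 10.38, 9.44 and 10.35 for Pdr1-Cyc8, 9.33, 9.48 and 9.22 for Pdr1-Sin3, 9.81, 9.55 and 9.47 for the deletion, and 10.06, 9.87 and 9.96 for the deletion carrying Pdr1-Cyc8. The same empty vector culture was high, and replicate 2 of Pdr1-Cyc8 was low. All 4 complex II genes were 0.45 to 0.69 above the empty vector with Pdr1-Cyc8 and between -0.19 and 0.08 with Pdr1-Sin3. Pdr1-Cyc8 minus Pdr1-Sin3 was 0.50 to 0.71 in the 4 genes, and the lowest adjusted p of these differences was 0.164.

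NDI1, the internal NADH dehydrogenase, had log2 levels of 8.54, 8.44 and 8.60 for the empty vector, 9.34, 8.24 and 9.21 for Pdr1-Cyc8, 8.39, 8.70 and 8.81 for Pdr1-Sin3, 8.89, 8.76 and 8.58 for the deletion, and 8.67, 9.16 and 8.68 for the deletion carrying Pdr1-Cyc8. A pair of Pdr1-Cyc8 cultures was the highest and the remaining one the lowest of all 15. No difference of NDI1 was called, and the largest against the empty vector was 0.40 with Pdr1-Cyc8 (SE 0.265, adjusted p = 0.654).

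**Figure D4:**
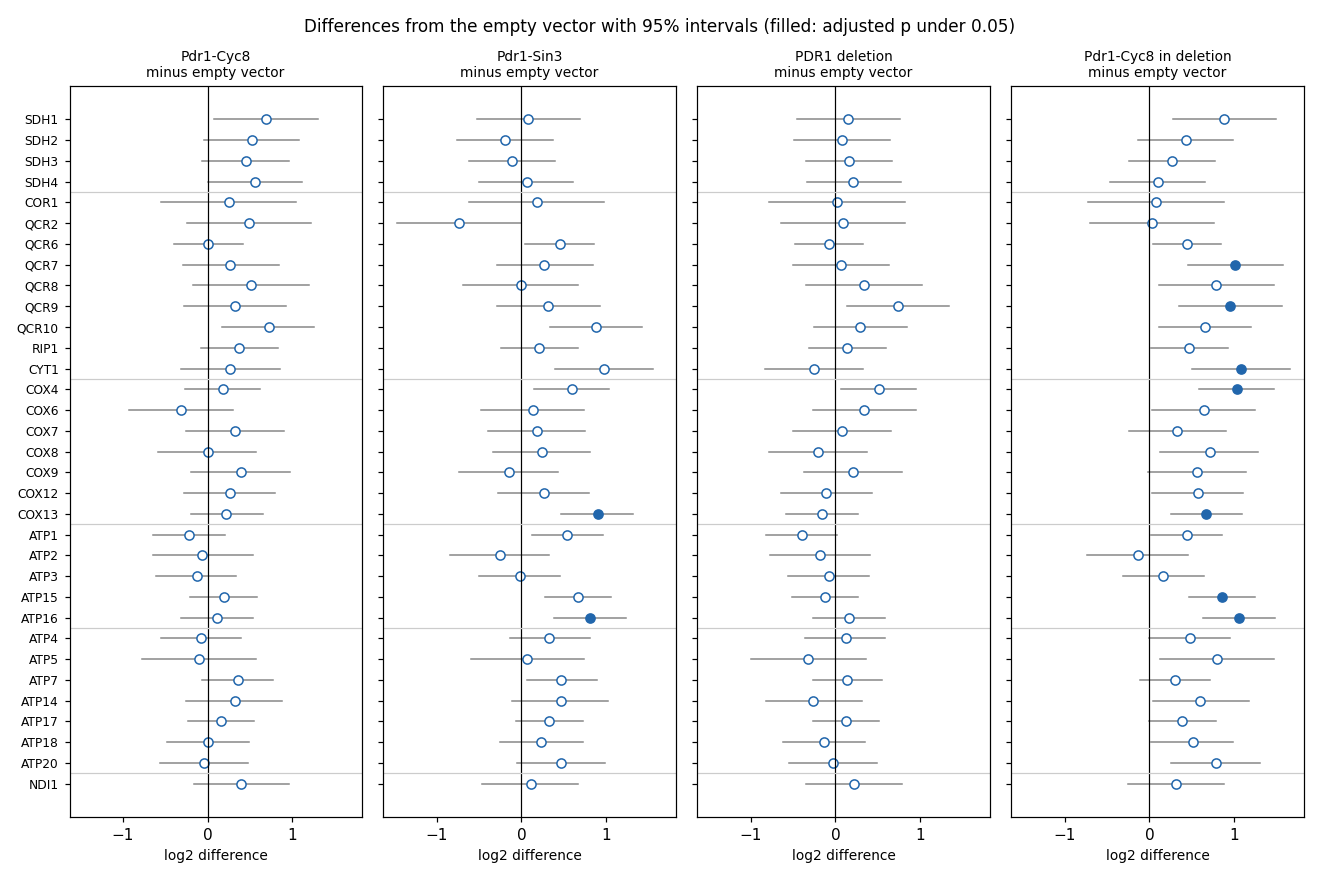
Log2 difference from the empty vector (horizontal) of each gene with its 95% interval from the limma fit, in 4 panels by group; filled points had an adjusted p under 0.05 over all probe sets and lines part the complexes. The 7 filled points of the last panel lie at 0.67 to 1.08 and the 2 of the Pdr1-Sin3 panel at 0.81 and 0.90, and the panels of Pdr1-Cyc8 and of the deletion have none.

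The Pdr1-Sin3 cultures held 2 called members, COX13 and ATP16, both up, which is 6.06% of the members beside 2.64% of all probe sets and 3.18% of all genes called up. A further 3, CYT1, QCR10 and ATP15, had adjusted p-values between 0.0577 and 0.0714, and 10 members had an unadjusted p under 0.05. The median over the members was 0.24, against -0.02 over all genes. In 13 members (39.4%) the Pdr1-Sin3 cultures lay above the empty vector without overlap, beside 16.8% of all genes. The count was 0 without replicate 1 of the empty vector or replicate 1 or 2 of Pdr1-Sin3, and 1 without replicate 2 or 3 of the empty vector or replicate 3 of Pdr1-Sin3. Over all probe sets, 129 to 245 were called in either direction in these fits, beside 343 in the full fit. The ribosome assembly genes averaged -0.62 ± 0.06 (SD, n = 3) in these cultures, with 57 of 60 below 0 and 3 called down, and the stress genes 1.27 ± 0.16, with 17 of 33 called up. Their part in the members' values was not tested.

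With Pdr1-Cyc8 alone limma called 0 of 33 members, beside 0.712% of all probe sets, and 3 had an unadjusted p under 0.05. Of the members 25 were above 0 and the median was 0.26 (all genes -0.02). The groups lay apart, with the fusion higher, in 7 members (21.2%), beside 9.30% of all genes. The 9 genes of complex III were all above 0, from 0.01 (QCR6) to 0.72 (QCR10), whereas the 12 ATP synthase genes split evenly, 6 above and 6 below. In the same cultures the ribosome assembly genes averaged -0.73 ± 0.47 (SD, n = 3), with 59 of 60 below 0 and 0 called, and the stress genes 0.77 ± 0.30, with 5 of 33 called up, and their part was not tested.

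In the deletion limma also called 0 members, beside 0.0323% of all probe sets, and 2 had an unadjusted p under 0.05. The median was 0.08 (all genes 0) and 20 of the 33 were above 0. After leaving out the 3 arrays with the lowest ribosome assembly level it was -0.05 with 15 above 0, and without replicate 1 of the empty vector 0 with 16 above 0, so the direction is not settled. QCR9 (0.74) and COX4 (0.51) were the 2 members (6.06%) with the deletion above the empty vector without overlap, beside 6.61% of all genes, and 8 of the 12 ATP synthase genes lay below 0, down to -0.40 for ATP1 (adjusted p = 0.389).

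Against the deletion, the cultures with Pdr1-Cyc8 in the deletion had 10 members called up and 0 down. These were CYT1, QCR7, COX8, COX13, ATP1, ATP15, ATP16, ATP5, ATP14 and ATP20, with differences from 0.81 to 1.34. They are 30.3% of the members, beside 10.3% of all probe sets and 12.3% of all genes called up, and beside 16.9% of the genes at least as bright. Of the 10, 6 belong to ATP synthase, whose 12 genes were all above 0 with a median of 0.73, while the 33 members had a median of 0.36 and all genes 0.06. The groups lay apart in 15 members (45.5%), beside 19.9% of all genes.

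The ribosome assembly genes also differed in this comparison, with 59 of 60 above 0 and 25 called up. They averaged -1.45, -1.70 and -0.14 in the 3 deletion cultures and -0.07, 0.00 and -0.01 in the Pdr1-Cyc8-in-deletion cultures. The spread among the deletion cultures was thus larger than that of any respiratory complex. Without the 3 arrays lowest in that list (replicates 1 and 2 of the deletion and replicate 1 of Pdr1-Cyc8), a single deletion culture remained, so no count of calls is given. The members' median against that culture was 0.66, and 30 of 33 genes were above 0. How far the calls depend on these arrays is thus not settled. Between 5 and 11 members were called when single arrays were left out, with 5 without replicate 2 or replicate 3 of the Pdr1-Cyc8-in-deletion group. Over all probe sets, 999 to 2227 were called in either direction in these fits, beside 1764 in the full fit. CYT1, COX13, ATP1, ATP15 and ATP16 were called in all 6 of these fits, QCR7, COX8 and ATP5 in 3, ATP14 in 2 and ATP20 in 0.

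Whether the fusion's effect differed with and without endogenous PDR1 was tested as an interaction. ATP1 passed, with the effect of Pdr1-Cyc8 1.05 higher on the log2 scale in the deletion (SE 0.278, adjusted p = 0.0275), where the fusion added 0.84 and in PDR1 cells -0.22. This 1 call is 3.03% of the members, below the 6.23% of all probe sets and 7.67% of all genes called up. The interaction was 0.79 to 1.22 in ATP5, CYT1, COX8, ATP20, ATP15 and ATP16 and was not called, with adjusted p-values from 0.0592 to 0.130. The call of ATP1 was lost without replicate 2 of the empty vector, replicate 1 or 2 of Pdr1-Cyc8, replicate 2 of the deletion, or replicate 3 of Pdr1-Cyc8 in the deletion. Leaving out the 3 arrays with the lowest ribosome assembly level gave 1.15 but left a single deletion culture. Whether the call depends on those arrays is thus not settled. In this interaction all 60 ribosome assembly genes were above 0, with a median of 1.76 and 32 called up. Of 54 genes listed as mitochondrial ribosome, 16 were called up and 1 (MRP8) down, and 6 of 33 stress genes were called down. Their part in the ATP1 value was not tested. The interactions of other genes given below include the 3 arrays with the lowest ribosome assembly level, and their dependence on these was not tested.

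The fusions were also compared directly. Between Pdr1-Cyc8 in the deletion and Pdr1-Sin3, which share a spike-in set, limma called 0 members (2.52% of all probe sets were called), with a median of 0.25 against 0.09 over all genes and 9 unadjusted p under 0.05. Under median centring the members' median was 0.09, beside -0.03 over all probe sets. Between Pdr1-Cyc8 and Pdr1-Sin3 it called 0 members as well (2.72% of all probe sets were called), and 10 had an unadjusted p under 0.05. In that comparison the complex II genes were all higher with Pdr1-Cyc8 and 11 of the 12 ATP synthase genes were lower, ATP1 by -0.76 (SE 0.197, adjusted p = 0.0523). QCR2 was 1.23 higher (SE 0.344, adjusted p = 0.0733). A p that misses the threshold does not show that the groups were alike.

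Other genes of oxidative phosphorylation were examined beside the members. Among 11 further subunits, isoforms and inhibitors, 3 rose in the deletion carrying Pdr1-Cyc8 and 2 in the Pdr1-Sin3 group against the empty vector. COX26, a small protein of cytochrome c oxidase, averaged 6.73 ± 0.30 (SD, n = 3) in empty vector cultures and 8.96 ± 0.39 with Pdr1-Cyc8 in the deletion, a difference of 2.23 (SE 0.438, adjusted p = 0.00593), and rose by 2.16 with Pdr1-Cyc8 (adjusted p = 0.0314). STF2 and STF1 encode proteins that stabilise inhibited ATP synthase. STF2 had mean levels of 9.98 ± 0.64 with the empty vector and 12.13 ± 0.12 with Pdr1-Sin3 (2.15, SE 0.321, adjusted p = 0.00186), and STF1 rose by 1.13 (SE 0.242, adjusted p = 0.0182). The environmental stress genes were also highest with Pdr1-Sin3, as given above, and their part in these values was not tested.

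Cytochrome c carries electrons between complexes III and IV, and CYC8 takes its name from mutants with altered cytochrome c. CYC7, the minor isoform, had log2 levels of 5.05, 5.66 and 5.13 for the empty vector, 6.91, 7.08 and 7.83 for Pdr1-Cyc8, 7.53, 7.91 and 7.04 for Pdr1-Sin3, 5.52, 5.97 and 6.08 for the deletion, and 7.79, 8.73 and 8.41 for the deletion carrying Pdr1-Cyc8. All 9 fusion cultures lay above all 6 others. CYC7 rose by 1.99 with Pdr1-Cyc8 (SE 0.315, adjusted p = 0.00805), by 2.21 with Pdr1-Sin3 (adjusted p = 0.0015) and by 3.03 with Pdr1-Cyc8 in the deletion (adjusted p = 3.96e-05). CYC1, the major isoform, had means of 8.70 ± 0.29 with the empty vector and 7.25 ± 0.42 with Pdr1-Sin3, where it fell by 1.45 (SE 0.271, adjusted p = 0.00829), and differed by -0.02 and 0.06 with Pdr1-Cyc8 without and with the deletion. With Pdr1-Sin3 the major isoform thus fell while COX13 and ATP16 rose. GUT2, the mitochondrial glycerol-3-phosphate dehydrogenase, passes electrons to the chain and rose with Pdr1-Sin3 (1.66, adjusted p = 0.00851). DLD3, a D-lactate dehydrogenase that does not feed the chain, was 1.53 higher with Pdr1-Cyc8 than with Pdr1-Sin3 (adjusted p = 0.0445). It fell by 1.34 against the deletion in the deletion carrying Pdr1-Cyc8 (adjusted p = 0.0236).

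The tricarboxylic acid cycle supplies the chain with NADH and succinate. Its 12 genes had a median of -0.19 with Pdr1-Cyc8 in the deletion against the empty vector, with 1 called up (MDH1) and 0 down, beside the 0.56 of the members. Against the deletion 1 rose (MDH1, mitochondrial malate dehydrogenase, by 0.95, adjusted p = 0.0205) and 1 fell (ACO1, aconitase, -1.43, adjusted p = 0.0271). LPD1, the lipoamide dehydrogenase shared by pyruvate and 2-oxoglutarate dehydrogenases, fell with Pdr1-Sin3 (-1.38, SE 0.227, adjusted p = 0.00358) and was 0.94 higher with Pdr1-Cyc8 than with that fusion (adjusted p = 0.039). Of the 10 ubiquinone synthesis genes 0 were called against the empty vector in any group, and against the deletion 1 was called, COQ6, downward, which also passed the interaction test (-1.16, adjusted p = 0.0424). Of 5 ADP/ATP and phosphate carrier genes, PET9, the main ADP/ATP carrier, was called against the deletion (0.81, adjusted p = 0.0277). No test set these lists against the members.

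Machinery that builds the complexes gave a mixed count. With Pdr1-Cyc8 in the deletion against the empty vector, 2 of 16 genes listed under complex II and III assembly rose. QRI5 was 1 of these, although its role is in complex IV. In the same comparison 4 of 23 complex IV assembly genes rose and 1 (PET122) fell, and 1 of 12 ATP synthase assembly genes rose. SDH6, an assembly factor of complex II, rose with Pdr1-Sin3 by 1.76 (SE 0.272, adjusted p = 0.00232), while the complex II subunits themselves lay between -0.19 and 0.08 there. The interaction of SDH6 was -1.71 (adjusted p = 0.0143), and SDH7, another such factor, was lower with Pdr1-Cyc8 than with Pdr1-Sin3 (-0.86, adjusted p = 0.035). In the deletion carrying Pdr1-Cyc8, PET117 (1.34, adjusted p = 0.0196), COX20 (1.13, adjusted p = 0.0302) and QRI5 (1.06, adjusted p = 0.0375) rose against the empty vector and PET122 changed by -0.76 (adjusted p = 0.0206). Against the deletion, COX17, a copper chaperone of complex IV (1.0, adjusted p = 0.00776), MZM1, which acts on the Rieske protein (0.96, adjusted p = 0.0391), and NCA3 (1.06, adjusted p = 0.0294) rose. ATP23, which processes and assembles the Atp6 subunit, and ATP11, an F1 assembly chaperone, passed the interaction test at 1.59 (adjusted p = 0.0365) and 1.16 (adjusted p = 0.0324).

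The mitochondrial ribosome makes the core subunits of complexes III and IV and of ATP synthase. With Pdr1-Cyc8 in the deletion, 7 of its 54 genes were called up against the empty vector and 30 against the deletion. The medians were 0.48 and 0.69, and 5.32% and 12.3% of all genes were called up. The list averaged -0.40, -0.44 and -0.03 in the 3 deletion cultures, of which replicates 1 and 2 were also the low ones in ribosome assembly genes. MRPS16, of the small subunit, rose by 1.56 against the deletion (adjusted p = 0.00028). MRPL11 and MRPL31, of the large subunit, had interactions of 1.75 (adjusted p = 0.00689) and 1.74 (adjusted p = 0.0219). MRP8, listed with them by name but not an established ribosome subunit, had an interaction of -1.65 (adjusted p = 0.0474). MRPL40 and MRP10 were lower with Pdr1-Cyc8 than with Pdr1-Sin3, at -1.02 and -0.83 (adjusted p = 0.034 for each). The list means stood in the order of F1: 0.48 ± 0.11 (SD, n = 3) with Pdr1-Cyc8 in the deletion, 0.25 ± 0.05 with Pdr1-Sin3, -0.06 ± 0.23 with Pdr1-Cyc8 and -0.29 ± 0.23 in the deletion.

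Of the 7 subunits encoded in the mitochondrial genome, limma called 0 against the empty vector in any group. In the deletion 5 of the 7 were nevertheless below 0 and 2 above, with a median of -0.90 (all genes 0). Averaged over the 7, the deletion cultures gave -0.63, -0.80 and -0.51, and the empty vector cultures -0.12, -0.10 and 0.22. Against the deletion 3 of the 7 subunits rose with Pdr1-Cyc8 in the deletion. COX3 had log2 levels of 5.32, 4.35 and 4.96 in the deletion and 6.20, 5.92 and 6.29 with Pdr1-Cyc8 in the deletion, a difference of 1.25 (SE 0.318, adjusted p = 0.0144). With the empty vector it was 6.01, 6.59 and 6.79, so for COX3 the deletion was the low group. COB (cytochrome b) and ATP6 (a subunit of the proton channel) passed the interaction test at 1.95 (adjusted p = 0.0279) and 1.46 (adjusted p = 0.0242). COB was lower with Pdr1-Cyc8 than with Pdr1-Sin3 (-1.65, adjusted p = 0.0276). In the deletion, COX3, COB (4.70, 5.77 and 6.15) and ATP6 (4.93, 4.38 and 5.22) lay below the levels of every member. No detection calls were used, so these differences rest on weak signals.

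Of 12 regulators of respiratory genes, MIG2 was the 1 called against the empty vector. HAP4, the limiting subunit of the Hap activator, named here for its role, differed from the empty vector by -0.02 to 0.43 in the 4 groups with adjusted p-values of 0.563 or more. MIG2, a repressor of glucose-repressed genes, had means of 9.68 ± 0.58 (SD, n = 3) for the empty vector, 7.40 ± 0.42 for Pdr1-Cyc8, 10.34 ± 0.15 for Pdr1-Sin3, 8.95 ± 0.55 for the deletion and 6.31 ± 0.12 for the deletion carrying Pdr1-Cyc8. It fell in the deletion carrying Pdr1-Cyc8 (-3.37, SE 0.315, adjusted p = 1.89e-05) and in the Pdr1-Cyc8 group (-2.28, adjusted p = 0.0026), and it was lower in the deletion carrying Pdr1-Cyc8 than with Pdr1-Sin3 (-4.03, adjusted p = 6.2e-06). HXK2, the hexokinase with a role in glucose repression, passed the interaction test (2.15, adjusted p = 0.0414). It was low in replicate 1 of Pdr1-Cyc8 (10.96) and replicates 1 and 2 of the deletion (10.97 and 11.38). Those cultures were also the lowest in ribosome assembly genes. The other cultures of these groups were at 12.26 to 12.9, and those of the empty vector at 12.49 to 12.62. The dependence of the HXK2 interaction on the low cultures was not tested. The 19 glucose-repressed carbon genes measured averaged 0.57 ± 0.07, 0.56 ± 0.14, 0.30 ± 0.06 and 0.18 ± 0.14 for Pdr1-Cyc8 in the deletion, Pdr1-Cyc8, Pdr1-Sin3 and the deletion, with 5, 2, 2 and 0 called up. The part of these genes in the respiratory values was not tested.

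**Figure D5:**
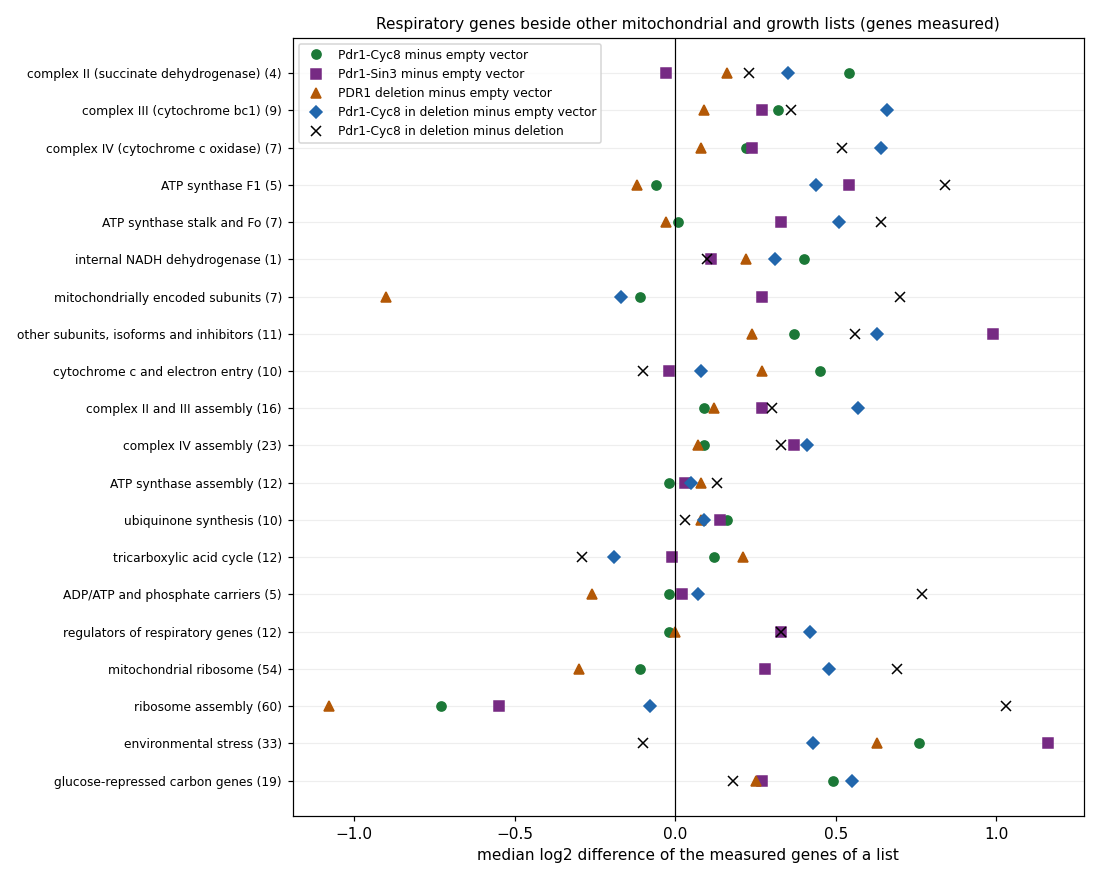
Median log2 difference (horizontal) of the measured genes of each list (rows, number of genes in parentheses) in 5 comparisons (symbols). Complexes III and IV, F1 and the stalk and Fo genes have medians of 0.44 to 0.66 for Pdr1-Cyc8 in the deletion minus the empty vector (diamonds), where the tricarboxylic acid cycle is at -0.19, and ribosome assembly genes are at -1.08 in the deletion (triangle).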

How the data were processed

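The deposited table holds linear intensities from the authors, 1 per probe set and array (9335 probe sets, 60 of them controls). How they were made (software, background correction, scaling) was not stated in what was used here. All arrays had a mean of 500.5 to 500.7 after trimming 2% at each end, so they had been scaled, and the number of arrays limits the precision. Values were quantile normalised over all probe sets and converted to log2(value + 16). The 9275 other probe sets matched 1 gene (6504), several (328) or none (2443) in the platform annotation. Groups, from the sample titles, were compared with limma 3.58.1 (R 4.3.3) in 1 fit to 15 arrays (10 residual, 5.35 prior degrees of freedom), adjusted by Benjamini-Hochberg over 9275 probe sets. The members, lists and tests were chosen with earlier results of these data known. Members called, and the largest rise and fall of each complex, were named with every value, and in other lists the called genes with the largest changes over all comparisons, up to 3 each way. HAP4 falls outside that rule. On simulated data for Pdr1-Cyc8 in the deletion against the empty vector, 49.5% of 200 probe sets changed 2-fold and 95.5% of 200 changed 4-fold were recovered, with 12 false calls. The changed probe sets were of above-median level, and genes were simulated without correlation. Same-numbered replicates correlated at -0.35 to 0.33 across groups, over 0.1 in 3 of 30 pairs, so the numbers were not taken to pair samples. Nothing beyond the labels says that replicates came from separate cultures, so p-values measure the spread between these samples. Figures used matplotlib 3.10.9 (Python 3.11.15).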

Additional observations from a re-analysis of the deposited data

Results flagged for a closer look

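ATP1, which encodes the alpha subunit of F1, is listed because the effect of Pdr1-Cyc8 differed with and without the endogenous gene by a test of that difference: 1.05 on the log2 scale (SE 0.278, adjusted p = 0.0275 with limma). Pdr1-Cyc8 minus its control was -0.22 in cells with PDR1 (not called) and 0.84 in cells without it (adjusted p = 0.00968). It was 1 of 33 genes (3.03%), below the 6.23% of all probe sets and 7.67% of all genes called up in this test. The call was kept in 7 of the 12 fits that left out 1 array, and the interaction crosses the spike-in sets. With 3 cultures a group, no culture was tested as standing apart.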

How the results depend on the processing

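The count of members called against the empty vector was 0 for Pdr1-Cyc8 and for the deletion under all 18 alternatives run. For Pdr1-Sin3 (2) it was 1 with median centring, a pseudocount of 1 or the replicate number as a block, 4 without the dimmest 25% of probe sets or with a pseudocount of 64, 5 with array weights or the mean of all probe sets of a gene, and 0 to 1 without single arrays. Over all probe sets, 343 were called in the main fit, 773 with array weights and 129 to 245 without single arrays. For Pdr1-Cyc8 in the deletion (7) the count of members was 3 with median centring, 5 with the replicate block and 3 to 7 without single arrays. In the fits without single arrays, 370 to 544 of all probe sets were called. With median centring 771 of 9275 probe sets were called in either direction, beside 784 with quantile normalisation, so the members' excess was smaller. Against the deletion (10) it was 4 when only the groups compared were fitted, 0 after leaving out the 3 arrays with the lowest ribosome assembly level (1 deletion array is left, assumed to vary like the other groups), 10 with the block and 5 to 11 without single arrays. When only the groups compared were fitted, the 4 members called against the deletion stood beside 929 of 9275 probe sets called in either direction. The fit to all arrays called 1764 probe sets there, so the members' excess was again smaller. Against Pdr1-Sin3 (0) only the fit of the groups compared gave 1. Pdr1-Cyc8 against Pdr1-Sin3 (0) gave 1 with the values as deposited, median centring, the dimmest left out, an intensity trend with a robust prior or the mean of probe sets, 3 with a pseudocount of 64 or array weights, and 0 to 1 without single arrays. The interaction (1) gave 2 without the dimmest, with array weights or the mean of probe sets, 3 with a pseudocount of 64, and 0 to 2 without single arrays. Over all probe sets, 438 to 1805 were called without single arrays, beside 1077 in the main fit. The members' median interaction was 0.53 without the 3 arrays, beside 0.33 in the main fit. Of the 20 member calls, 2 (COX4 and ATP16, Pdr1-Cyc8 in the deletion against the empty vector) passed under every alternative run, and none turned its direction. All 20 came from comparisons across the spike-in sets. The cause of these changes was not tested.

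Complex levels moved by more than the spread of their cultures as follows. Without the 3 arrays, the deletion's value was 0.06 for complex II, 0.06 for complex III, -0.14 for complex IV, -0.12 for the stalk and Fo genes and 0.05 for NDI1, and the stalk and Fo value was 0.01 as deposited. F1 was -0.12 with Pdr1-Cyc8 under median centring, and with Pdr1-Cyc8 in the deletion 0.38 as deposited and 0.21 under median centring. Without single arrays, complex II ranged from -0.17 to 0.20 with Pdr1-Sin3, 0.02 to 0.39 in the deletion and 0.29 to 0.66 in the deletion carrying Pdr1-Cyc8. Complex III ranged from 0.28 to 0.46 with Pdr1-Cyc8 and 0.08 to 0.25 in the deletion, and F1 from -0.08 to 0.05 with Pdr1-Cyc8 and 0.42 to 0.54 in the deletion carrying it.

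Limits: each group has 3 arrays, no detection calls were used, and the spike-in sets coincide with groups. In the simulated data 49.5% of the probe sets changed 2-fold were recovered, so changes of that size are often missed, and smaller ones were not simulated.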
